A study of Homo sapiens with 6 samples.

Results

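The major histocompatibility complex (MHC) on chromosome 6 held 485 of the 248031 accessible regions found in U2OS cells with and without CRAMP1. Peaks of the 6 libraries that overlapped by at least 1 bp were merged into regions, and a region counted as an MHC region when its midpoint lay between 29600 and 33400 kb of hg19. Of these, 214 lay in the class I part (to 31400 kb), 148 in the class III part (31400 to 32200 kb) and 123 in the class II part (from 32200 kb). The first member, chr6:29600044-29601683, had a peak in 6 of 6 libraries, and the nearest region outside that limit, chr6:29599192-29599446, had a peak in 1 library. At the other limit, the last member, chr6:33398831-33399300, and its neighbour outside, chr6:33400579-33401815, both had peaks in 6 libraries.

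The class I part holds the genes for HLA-B and HLA-C, whose products show peptides from inside the cell to cytotoxic T cells, and relatives such as HLA-E, HLA-F and MICA. The class II part holds the HLA-DR, HLA-DQ and HLA-DP chains, which antigen-presenting cells use to show peptides taken up from outside, together with the transporter and proteasome genes TAP1, TAP2, PSMB8 and PSMB9 that supply class I molecules with peptides. Between them, the class III part is packed with genes of other functions, among them complement components, heat shock proteins and the cytokines TNF, LTA and LTB. Class I genes are transcribed in most nucleated cells, whereas class II genes are kept mostly to antigen-presenting cells unless interferon gamma induces them.

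The groups were 3 ATAC-seq libraries of CRAMP1-KO cells and 3 of WT cells, all in U2OS, an established human osteosarcoma line. ATAC-seq uses a transposase to cut open chromatin and tag it for sequencing. CRAMP1 is named in the series title for the biogenesis of histone H1, the linker histone that binds the nucleosome and helps compact chromatin. The labels give no treatment and leave unstated whether each replicate was its own culture and whether the CRAMP1-KO line was 1 clone, and the peak lists cannot check the knockout. The p-values thus rest on a spread between libraries that may be technical.

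The promoters of 6 HLA genes are shown as examples of genes with a region within 500 bp of the start in all 6 libraries. Other HLA genes, such as HLA-DMB, also had such a region and are not shown. Class I and class II promoters are known to share a regulatory module. That module, the SXY module, contains the Y box, which is bound by NF-Y through an inverted CCAAT sequence. The letters CTGATTGG, which hold an inverted CCAAT, were searched on both strands in the 250 bases before the start and are in capitals (they read CCAATCAG on the other strand). The sequences are from RefSeq, GRCh38.p14, and end at the base before the gene start. In that build they lie at chr6:31357180-31357429 (- strand), chr6:31272093-31272342 (- strand), chr6:29723184-29723433 (+ strand), chr6:32637156-32637405 (+ strand), chr6:32666658-32666907 (- strand) and chr6:32953098-32953347 (- strand), in the order of the lines.
HLA-B: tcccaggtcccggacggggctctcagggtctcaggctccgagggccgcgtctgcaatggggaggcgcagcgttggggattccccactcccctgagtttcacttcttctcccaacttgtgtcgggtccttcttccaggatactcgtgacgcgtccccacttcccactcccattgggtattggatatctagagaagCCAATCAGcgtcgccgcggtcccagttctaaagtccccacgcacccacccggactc
HLA-C: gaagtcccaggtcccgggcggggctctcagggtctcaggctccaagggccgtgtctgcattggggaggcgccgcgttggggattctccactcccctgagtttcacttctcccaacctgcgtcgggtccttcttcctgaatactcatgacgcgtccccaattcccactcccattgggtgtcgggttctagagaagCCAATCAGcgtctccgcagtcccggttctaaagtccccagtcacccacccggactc
HLA-F: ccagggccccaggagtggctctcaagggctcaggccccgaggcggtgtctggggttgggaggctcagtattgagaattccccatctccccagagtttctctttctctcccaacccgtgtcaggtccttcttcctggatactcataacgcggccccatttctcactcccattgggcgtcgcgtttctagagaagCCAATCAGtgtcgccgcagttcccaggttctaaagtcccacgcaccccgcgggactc
HLA-DQA1: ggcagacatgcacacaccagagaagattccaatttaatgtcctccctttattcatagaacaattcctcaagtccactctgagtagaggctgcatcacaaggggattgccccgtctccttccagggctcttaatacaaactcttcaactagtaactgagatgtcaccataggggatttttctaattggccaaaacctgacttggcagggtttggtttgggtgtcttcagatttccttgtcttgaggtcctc
HLA-DQB1: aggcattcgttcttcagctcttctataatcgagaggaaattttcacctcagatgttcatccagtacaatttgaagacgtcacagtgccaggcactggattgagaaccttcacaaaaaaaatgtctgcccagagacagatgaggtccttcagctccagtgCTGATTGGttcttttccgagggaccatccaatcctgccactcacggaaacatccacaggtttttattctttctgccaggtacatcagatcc
HLA-DMA: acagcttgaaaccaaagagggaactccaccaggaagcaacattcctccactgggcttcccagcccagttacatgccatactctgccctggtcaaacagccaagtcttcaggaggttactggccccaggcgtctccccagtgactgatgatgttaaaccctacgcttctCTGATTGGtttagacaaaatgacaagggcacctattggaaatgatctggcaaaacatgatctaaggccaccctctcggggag

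The motif was present in 1337 of 35116 promoters in the RefSeq table (3.81%). Among the class I heavy chains and their relatives it was found in 4 of the 6 genes that had an entry, and among the class II chains in 3 of 9. Its first base in the printed strand lay 56 bases before the start in HLA-B, 56 in HLA-C and 57 in HLA-F, where it read CCAATCAG, and 91 in HLA-DQB1 and 82 in HLA-DMA, where it read CTGATTGG. In the 3 class I promoters the capitals thus hold a direct CCAAT close to the start, which is the orientation of a core promoter CCAAT box and not that of the Y box. The HLA-DQA1 window did not contain these letters. HLA-E and HLA-DRA had no entry. A match describes letters and does not show that a factor was bound.

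The lists differed in length and strength, with 133756, 139242 and 157997 peaks on chromosomes 1 to 22 and X in CRAMP1-KO libraries 1, 2 and 3, against 198875, 151646 and 132686 in WT libraries 1, 2 and 3. WT library 1 stood apart, with the longest list and a median fold enrichment of 4.25, compared with 5.96 to 6.26 in the other libraries. Read totals are unknown, so no counting interval is given. Regions are described by 4 quantities. The first is whether a library has a peak there. Width is the number of bases covered by peaks, fold enrichment is the authors' ratio of summit pileup to local background, and pileup is the whole number of overlapping fragments at the highest summit, solved from fold enrichment and −log10 p and then scaled by the library's median log ratio over all shared regions. In bulk cells, a lower pileup in every cell and a site open in fewer cells cannot be told apart.

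MHC regions were shared between libraries more often than regions elsewhere. A peak in all 6 libraries was found in 266 of 485 MHC regions (54.8%), against 37.3% of all regions and 39.3% of those on the rest of chromosome 6. The share was 56.5% in class I, 49.3% in class III and 58.5% in class II. Regions found in 1 library numbered 97 (20%, against 30.7% of all regions), of which 34 came from CRAMP1-KO libraries and 63 from WT libraries, 41 of them from WT library 1. The MHC regions had a median width of 552 bp, against 405 bp over all regions. They were densest in class III, with 185 regions per Mb, compared with 119 in class I and 102.5 in class II.

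The number of MHC peaks did not separate the genotypes. There were 337, 327 and 369 MHC peaks in CRAMP1-KO libraries 1, 2 and 3, against 422, 366 and 335 in WT libraries 1, 2 and 3. The highest count was that of WT library 1 and the groups overlapped. Per 10000 peaks of a library, the MHC held 24.0 ± 1.03 in CRAMP1-KO cells and 23.5 ± 2.08 in WT cells (SD, n = 3 each; two-sided exact permutation test, p = 0.9). The smallest p that 3 libraries against 3 can give is 0.1. Per 1000 kb covered by peaks, 3027 ± 61.9 bases lay in the MHC in CRAMP1-KO cells and 2955 ± 215 in WT cells (exact permutation p = 0.8).

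By class, the shares in both genotypes again overlapped. Class I held 10.9 ± 0.457 peaks per 10000 in CRAMP1-KO cells and 10.7 ± 1.20 in WT cells (exact permutation p = 0.9). In class III the shares were 6.81 ± 0.475 in CRAMP1-KO cells and 6.91 ± 0.349 in WT cells (exact permutation p = 0.8). In class II they were 6.34 ± 0.212 in CRAMP1-KO cells and 5.94 ± 0.628 in WT cells (exact permutation p = 0.5). Class II shares were 6.58, 6.18 and 6.27 in CRAMP1-KO libraries 1, 2 and 3, against 5.23, 6.20 and 6.41 in WT libraries 1, 2 and 3, so that only WT library 1 lay below all CRAMP1-KO libraries. Covered bases of class II came to 783 ± 17.8 per 1000 kb in CRAMP1-KO cells and 744 ± 54.4 in WT cells (exact permutation p = 0.4). Over the 8 share comparisons every adjusted p was 0.9. Without WT library 1, the CRAMP1-KO minus WT difference in the MHC peak share was -0.68 per 10000, against 0.477 with all libraries, and without CRAMP1-KO library 1 it was -0.114. In class II the difference without WT library 1 was 0.0381 per 10000, against 0.396 with all libraries, and that of covered bases was 10.9 per 1000 kb, against 39.4. With lists cut to equal length these class II differences were 0.0754 and 12.7.

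**Figure D1:**
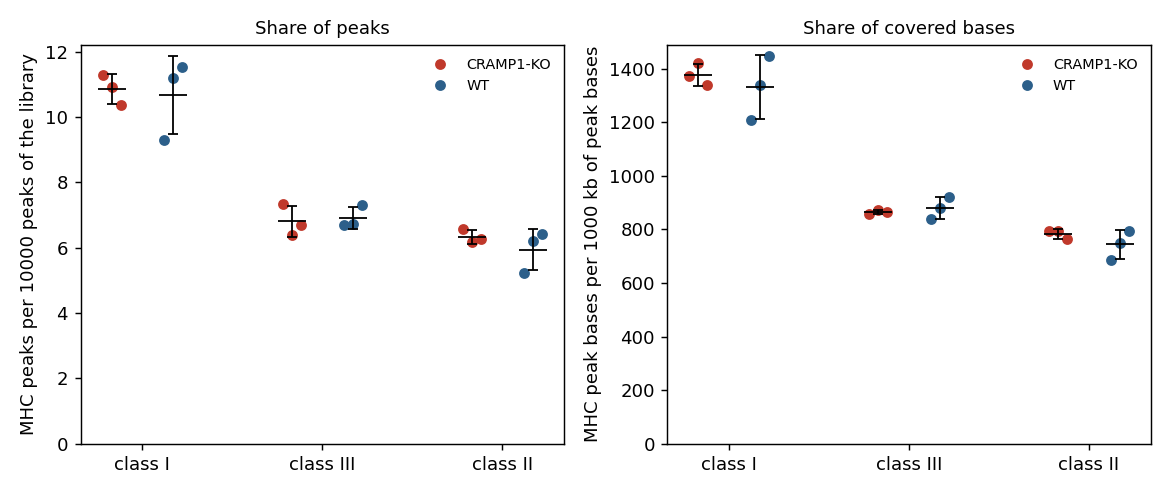
Share of each library's peaks (left, per 10000 peaks) and of its peak bases (right, per 1000 kb of peak bases) that lie in the class I, class III and class II parts of the MHC. Points are libraries, lines the mean and bars the SD of 3 libraries; the CRAMP1-KO and WT points overlap in every class, with class II means of 6.34 peaks per 10000 in CRAMP1-KO cells and 5.94 in WT cells.

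Along the interval, both genotypes followed the same profile of dense and sparse stretches. In 100-kb windows the most peaks were found 2.2 Mb from the start of the interval, inside class III, with 18, 17 and 21 in CRAMP1-KO libraries 1, 2 and 3, against 23, 17 and 15 in WT libraries 1, 2 and 3. The fewest were found 1.6 Mb from the start, in the window that contains HLA-C, with 2, 2 and 4 in CRAMP1-KO libraries and 3 in each WT library. The window at 2.3 Mb had 8, 7 and 10 peaks in CRAMP1-KO libraries and 16, 11 and 11 in WT libraries, and its groups did not overlap. This window was picked out of 38 after its values were seen and was not tested. In all, the groups did not overlap in 5 of the 38 windows, 4 with fewer and 1 with more peaks in CRAMP1-KO libraries. The 1 with more, at 0.4 Mb, had 10 peaks in each CRAMP1-KO library, against 8, 7 and 9 in WT libraries. These counts were not scaled for the length of the lists. The share of such windows over the genome was not computed, so the tally cannot be read as a trait of the MHC.

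**Figure D2:**
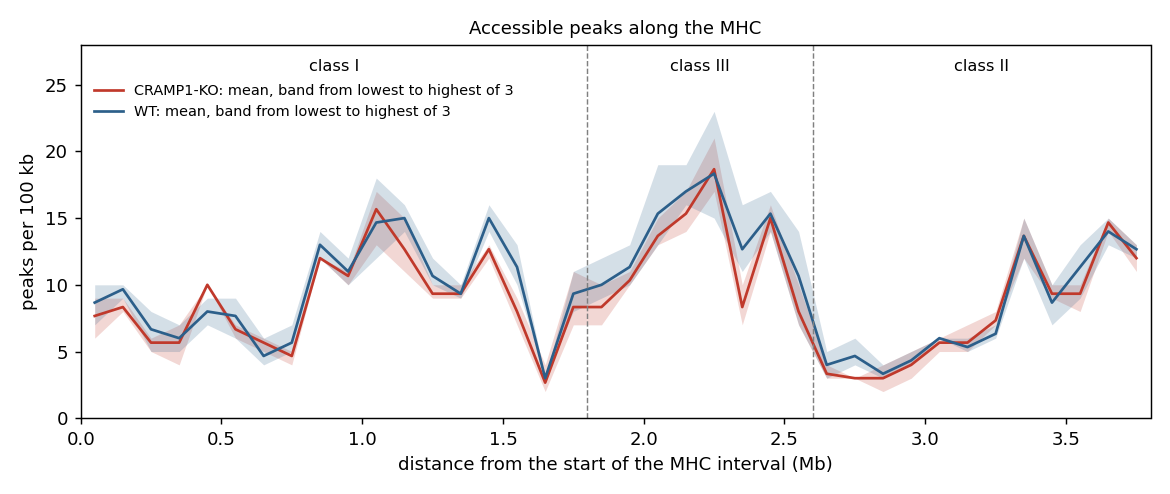
Peaks per 100 kb along the MHC against the distance in Mb from the start of the interval, with the mean of 3 libraries as a line and the range from the lowest to the highest library as a band, for CRAMP1-KO (red) and WT (blue). Dashed lines part class I, class III and class II; both genotypes peak 2.2 Mb from the start, at a mean of 18.7 peaks in CRAMP1-KO cells and 18.3 in WT cells, and run low over the first 0.4 Mb of class II.

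Several gaps had no peak in any library. The longest gaps of class II ran over 114 kb (chr6:32223751-32337402) and 105 kb (chr6:32452604-32557472), and the second of these contained HLA-DRB5, a second DR beta chain that some haplotypes carry. In class III, the gaps chr6:31940902-31973135 and chr6:31981283-32005978 contained C4A and C4B, the genes of complement C4. These 2 genes are near-identical copies, and how reads were placed between them was not tested. The lists named no alternative MHC haplotype contigs, and how well reads from the HLA alleles of U2OS cells match the hg19 sequence was not tested.

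Peaks in the MHC were wider than the typical peak of the same list in both genotypes. Those of class I and class II also had a higher median fold enrichment than all peaks of the same list. The median width of MHC peaks was 567, 611 and 570 bp in CRAMP1-KO libraries 1, 2 and 3, against 473, 538.5 and 507 bp in WT libraries 1, 2 and 3. The CRAMP1-KO medians were all above the WT medians, as they were over all peaks (463, 430 and 457 bp in CRAMP1-KO libraries, against 351, 425 and 378 bp in WT libraries). Median fold enrichment in the MHC was 7.09, 7.56 and 7.63 in CRAMP1-KO libraries, against 6.60, 7.68 and 7.43 in WT libraries, and these values overlapped. Over all peaks it was 6.20, 6.21 and 6.26 in CRAMP1-KO libraries and 4.25, 5.96 and 6.21 in WT libraries. Class III was lower than the other classes, with medians of 5.52, 6.58 and 6.11 in CRAMP1-KO libraries, against 5.35, 6.48 and 6.52 in WT libraries. In CRAMP1-KO libraries 1 and 3 these lay below the medians over all peaks.

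Class II regions had lower pileup than those of class I and class III in every library. Over shared regions, the median scaled pileup in class I was 98.0, 107.7 and 103 fragments in CRAMP1-KO libraries, against 102, 105 and 108 in WT libraries. In class III it was 91.9, 105 and 103 in CRAMP1-KO libraries, against 100.2, 103 and 102 in WT libraries. In class II it was 72.3, 77.8 and 78.4 in CRAMP1-KO libraries, against 75.1, 72.9 and 67.9 in WT libraries. Every class II median lay below every class I and class III median, and in each class the genotypes overlapped. Over all shared regions of the genome the medians ran from 74.2 to 76.8 in CRAMP1-KO libraries and from 70.5 to 73.6 in WT libraries.

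In class I the 3 regions of highest fold enrichment lay at none of the gene starts placed here. A site between HLA-B and MICA (chr6:31334493-31335283) led, with a median of 22.8 over the 6 lists, followed by a site between RPP21 and HLA-E (chr6:30421013-30421886; 21.7) and a site between POU5F1 and HLA-C (chr6:31213637-31214444; 19.9). In class III the leading region lay at the shared start of NELFE, a subunit of the negative elongation factor, and SKIC2, an RNA helicase of the cytoplasmic exosome pathway (chr6:31926215-31927361; 18.9), before the starts of LSM2 (16.9) and NEU1 (16.4). In class II a site between PSMB9 and HLA-DMB (chr6:32828857-32829538; 21.99) led, followed by the start of HLA-DMB (18.7) and a site between NOTCH4 and HLA-DRA (chr6:32222501-32223750; 18.2). None of these 9 regions was called in the pileup fit described next.

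Between genotypes, 22 of the 266 shared MHC regions changed in pileup (8.27%), 13 higher and 9 lower in CRAMP1-KO cells. The fit was limma on log2 scaled pileup over all 92505 shared regions, p-values adjusted by Benjamini-Hochberg and called under 0.05, and it called 16.3% of all regions, 9.58% higher and 6.77% lower. On the rest of chromosome 6 it called 16.8%. The MHC share of calls was therefore below that of all regions, and it was below it under each of the 12 alternatives too. The libraries of the genotypes did not overlap at any of the 22 called regions. The same values made the calls, so this is no separate support, here or where it is given for a called region below. The size of the change passed 1 on the log2 scale at 2 of the called regions. The split of calls depended on the scaling, in the MHC and over all regions alike. In the fit as given, 59.1% of MHC calls were higher, against 58.6% of calls over all regions. With libraries scaled by their lowest background it was 46.7% (7 higher, 8 lower), against 51.8%. Scaled on the rest of chromosome 6 it was 46.4% (13 higher, 15 lower), against 47.7%. When the deposited fold enrichment replaced pileup it was 83.3% (5 higher, 1 lower), against 75.2%. Single libraries moved the counts as well, to 9 higher and 2 lower without CRAMP1-KO library 1, 7 and 5 without CRAMP1-KO library 2, 8 and 8 without CRAMP1-KO library 3, 9 and 5 without WT library 2 and 5 and 8 without WT library 3. Without WT library 1, which stood apart, there were 11 higher and 6 lower. Over all regions, 57.8% to 62.8% of calls were higher with 1 library left out.

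Small shifts lay mostly below 0 in class I and class III. In class III, 58 of 73 regions lay below 0 (median log2 difference, CRAMP1-KO minus WT, -0.11), in class I 73 of 121 did (median -0.07), and in class II 35 of 72 did (median 0.02). Over all regions 50.5% lay below 0, with a median of -0.0037. The class I and class III medians stayed below 0 under each of the 3 other scalings. The class II median was -0.02 with libraries scaled by their lowest background, against -0.05 over all regions. It was -0.02 scaled on the rest of chromosome 6, against -0.05, and -0.03 with fold enrichment, against -0.01. Calls numbered 11 of 121 in class I (6 higher, 5 lower), 5 of 73 in class III (2 higher, 3 lower) and 6 of 72 in class II (5 higher, 1 lower). These were 9.09%, 6.85% and 8.33%, each below the 16.3% of all regions. No test of a difference between classes was made.

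**Figure D3:**
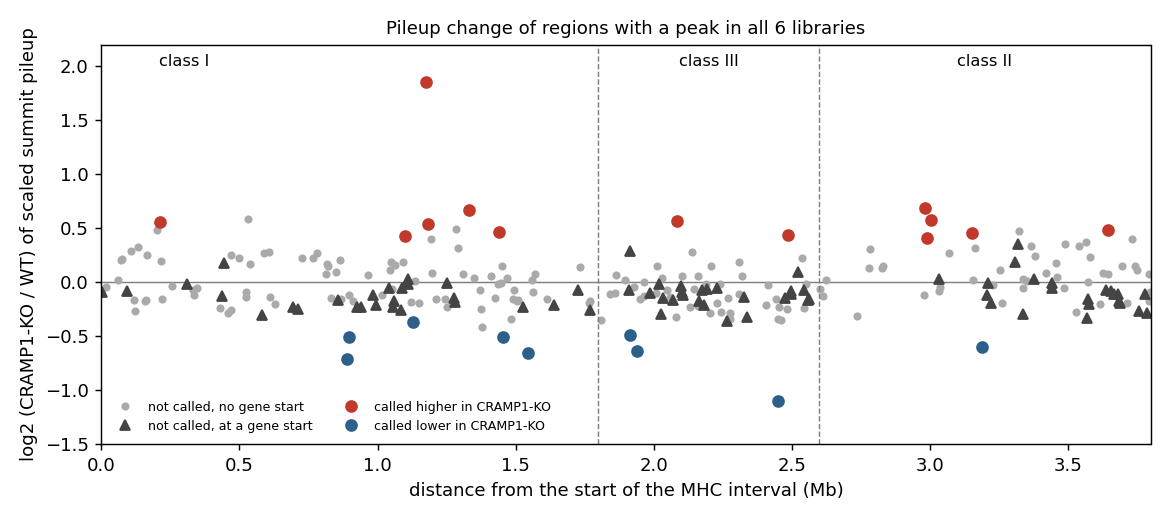
Log2 difference in scaled summit pileup (CRAMP1-KO over WT) of the 266 shared MHC regions against distance in Mb from the start of the interval. Red points are the 13 regions called higher and blue points the 9 called lower in CRAMP1-KO cells, triangles are uncalled gene starts; the outlying red point is the site between IER3 and DDR1 at 1.85, and the lowest blue point the TNXB site at -1.10.

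The strongest gain lay in class I, in the stretch between IER3, a stress-induced gene, and DDR1, a collagen receptor tyrosine kinase. The site (chr6:30773698-30775589) had a scaled pileup of 69.9, 87.4 and 76.0 in CRAMP1-KO libraries 1, 2 and 3, against 21.3, 23.2 and 19.97 in WT libraries 1, 2 and 3. Every CRAMP1-KO library was more than 3 times the highest WT library. The log2 difference was 1.85 ± 0.12 (SE; adjusted p = 0.000334), a 3.61-fold higher pileup in CRAMP1-KO cells. Its peak was wider as well, at 1554, 1823 and 1622 bp in CRAMP1-KO cells, against 781, 746 and 283 bp in WT cells, but the width difference did not pass (adjusted p = 0.203). The local background, compared after the same kind of scaling, was 2.42-fold higher. With fold enrichment in place of pileup, the log2 difference was 0.72, and the call held under all 11 alternatives that gave a value.

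The same stretch held opposite and weaker changes, named here after their values were seen. About 6 kb further along, a broad region (chr6:30781708-30784275) had a scaled pileup of 118, 116 and 96.8 in the CRAMP1-KO libraries, against 84.2, 82.9 and 61.2 in the WT libraries. No libraries overlapped, with a log2 difference of 0.54 ± 0.15 (SE; adjusted p = 0.0337), but its local background differed by more, 0.87, and with fold enrichment the difference was -0.25. This call was lost without CRAMP1-KO library 1 or 2 and without WT library 2 or 3, and scaled by the lowest background (adjusted p up to 0.441 over all alternatives). Between both lay a small region (chr6:30778614-30778953) with no peak in CRAMP1-KO libraries and raw pileups of 33, 43 and 26 in WT libraries. Without a peak it has no CRAMP1-KO pileup, so a lower pileup there is not shown. Peaks are rated against local background, which was 2.42-fold and 1.82-fold higher in CRAMP1-KO cells at the regions on either side. Nearer IER3, chr6:30727375-30728017 had 159, 171 and 174 in the CRAMP1-KO libraries, against 214, 215 and 221 in the WT libraries, all CRAMP1-KO values being lower, with a log2 difference of -0.36 ± 0.10 (SE; adjusted p = 0.0362) that held in 3 of 12 alternatives. In the RefSeq gene table HCG20 and LINC00243, both non-coding, lie between IER3 and DDR1.

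Another gain of class I lay on the class III side of HLA-G (chr6:29813239-29813526). It had 33.1, 39.5 and 36.8 in the CRAMP1-KO libraries, against 24.3, 25.7 and 24.0 in the WT libraries, all CRAMP1-KO values being above all WT values. The log2 difference was 0.56 ± 0.11 (SE; adjusted p = 0.00943) and held under all 12 alternatives. A site between VARS2 and CCHCR1 (chr6:30931412-30932425) had 53.9, 59.8 and 51.2 in the CRAMP1-KO libraries, against 36.4, 44.7 and 25.3 in the WT libraries, with the lowest value in WT library 3. Its log2 difference was 0.67 ± 0.19 (SE; adjusted p = 0.0366), and the call was lost without any 1 of CRAMP1-KO libraries 1, 2 and 3 and WT libraries 1 and 3, and with fold enrichment (adjusted p up to 0.172).

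Of the 5 losses of class I, the 3 largest had log2 differences from -0.71 to -0.51. Between HLA-E, which presents leader peptides of other class I chains to natural killer cells, and GNL1, chr6:30488443-30489464 had 67.4, 85.0 and 68.8 in the CRAMP1-KO libraries, against 98.7, 142 and 122 in the WT libraries. All CRAMP1-KO values were below all WT values, with a log2 difference of -0.71 ± 0.15 (SE; adjusted p = 0.0138) and a local background difference of -0.42 on the log2 scale. Its neighbour on the side of GNL1 (chr6:30495377-30495673) had 40.4, 46.7 and 52.0 in the CRAMP1-KO libraries, against 69.1, 58.8 and 69.2 in the WT libraries, again without overlap, and a log2 difference of -0.51 ± 0.13 (SE; adjusted p = 0.0255). The first call was lost without CRAMP1-KO library 1 (and with fold enrichment), the second without CRAMP1-KO library 1 or 2, without WT library 1 or 3 and with fold enrichment, with adjusted p up to 0.123 and 0.104. The region at the start of HLA-E itself was not called, with a log2 difference of -0.16 (limma adjusted p = 0.323). A site between POU5F1, the pluripotency factor OCT4, and HLA-C (chr6:31143133-31144134) had 60.1, 67.0 and 56.8 in the CRAMP1-KO libraries, against 91.8, 90.3 and 108 in the WT libraries. Its log2 difference of -0.66 ± 0.12 (SE; adjusted p = 0.00692) was lost only with fold enrichment.

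In class III the largest change was a loss inside TNXB, which encodes the matrix protein tenascin-X. The site (chr6:32050233-32051263) had a scaled pileup of 93.1, 94.5 and 69.6 in CRAMP1-KO libraries 1, 2 and 3, against 168, 184 and 196 in WT libraries 1, 2 and 3, so the highest CRAMP1-KO library was far below the lowest WT library. The log2 difference was -1.10 ± 0.14 (SE; adjusted p = 0.00171), a 2.15-fold higher pileup in WT cells. The local background differed by -0.50 there, and with fold enrichment the call was lost (log2 difference -0.60, adjusted p = 0.0772). All 7 shared regions inside TNXB, the called site among them, lay below 0, from -1.10 to -0.03, against 58 of 73 in class III as a whole. Their local backgrounds lay from -0.59 to -0.13. Only TNXB was tallied in this way, so the tally is no separate support for the loss. The other shared regions inside TNXB were not called, among them the adjacent chr6:32048727-32049634, named after its values were seen. It had 145, 158 and 156 in the CRAMP1-KO libraries, against 181, 201 and 201 in the WT libraries and a log2 difference of -0.34 ± 0.11 (SE; adjusted p = 0.0519). TNXB partly overlaps a duplicated module with C4A and C4B, and how reads were shared between copies was not tested.

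Other calls in class III were modest. A site between ABHD16A and DDAH2 (chr6:31685313-31685735) had 73.5, 79.0 and 78.4 in the CRAMP1-KO libraries, against 53.1, 49.7 and 53.2 in the WT libraries, with all CRAMP1-KO values higher. Its log2 difference of 0.56 ± 0.10 (SE; adjusted p = 0.00676) held under all 12 alternatives, and its local background differed by 0.03. Inside ATF6B, a transcription factor of the unfolded protein response, chr6:32086500-32087303 had 125, 114 and 106 in the CRAMP1-KO libraries, against 86.5, 87.8 and 79.9 in the WT libraries and a log2 difference of 0.44 ± 0.11 (SE; adjusted p = 0.0263). This call was lost without CRAMP1-KO library 1 or 2 or any WT library, scaled by the lowest background and with fold enrichment (adjusted p up to 0.18).

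At the cytokine genes, chr6:31541314-31541797 inside LTA had 33.1, 43.1 and 32.0 in the CRAMP1-KO libraries, against 50.8, 66.3 and 50.6 in the WT libraries. All CRAMP1-KO values were lower, with a log2 difference of -0.63 ± 0.15 (SE; adjusted p = 0.0216), and the call was lost without CRAMP1-KO library 1 or 3 or WT library 2 and with fold enrichment (adjusted p up to 0.145). At the shared start of NFKBIL1 and ATP6V1G2, chr6:31515113-31515453 had 95.6, 99.3 and 130.4 in the CRAMP1-KO libraries, against 153, 149 and 149 in the WT libraries. That log2 difference was -0.48 ± 0.13 (SE; adjusted p = 0.0341), and the call was lost without CRAMP1-KO library 1 or 2 or any WT library (adjusted p up to 0.116). No region lay at the starts used for TNF, LTA or LTB in any library. That of LTA differed by 11.7 kb from the RefSeq spacing, so a region at that other start would not be counted.

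In class II, 3 of the 5 gains lay side by side from HLA-DRB1 to HLA-DQA1. The first (chr6:32582258-32582725) had a scaled pileup of 56.4, 64.6 and 59.2 in CRAMP1-KO libraries 1, 2 and 3, against 34.9, 41.4 and 35.9 in WT libraries 1, 2 and 3. All CRAMP1-KO values were above all WT values, the log2 difference was 0.68 ± 0.11 (SE; adjusted p = 0.00508), and the call held under all 12 alternatives. The second (chr6:32590160-32590844; named after its values were seen) had 78.4, 85.0 and 84.8 in the CRAMP1-KO libraries, against 58.4, 62.1 and 66.6 in the WT libraries, without overlap, and a log2 difference of 0.41 ± 0.11 (SE; adjusted p = 0.0286) that was kept in 5 of 12 alternatives.

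The third covered the start of HLA-DQA1, the alpha chain of HLA-DQ, and was the 1 HLA gene start called in the fit. This region (chr6:32604265-32605230) had 39.2, 46.7 and 54.4 in the CRAMP1-KO libraries, against 31.9, 32.3 and 29.3 in the WT libraries. Raw pileups there were low, 32, 39 and 68 in CRAMP1-KO libraries and 42, 39 and 22 in WT libraries, and overlapped before scaling. The log2 difference was 0.57 ± 0.13 (SE; adjusted p = 0.0184), a 1.49-fold higher pileup, with the local background at the genome-wide floor of each library. It was lost without CRAMP1-KO library 2 or 3 or WT library 3, and with fold enrichment (adjusted p up to 0.0714). HLA-DQB1, its partner chain, had 55.2, 69.4 and 84.0 in the CRAMP1-KO libraries, against 72.1, 63.8 and 65.2 in the WT libraries, with overlap and a log2 difference of 0.03 ± 0.15 (SE; adjusted p = 0.901).

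At the far end of class II, a site lay between RPS18 and WDR46 among the genes placed here (chr6:33244484-33246473). It had 195, 171 and 174 in the CRAMP1-KO libraries, against 127, 133 and 126 in the WT libraries, without overlap. Its log2 difference was 0.48 ± 0.11 (SE; adjusted p = 0.0146), and it was lost without WT library 3, scaled by the lowest background and with fold enrichment (adjusted p up to 0.21). The 1 loss of class II lay between HLA-DOB and TAP2 (chr6:32787471-32788233), with 19.6, 25.1 and 28.8 in the CRAMP1-KO libraries, against 30.4, 38.1 and 42.6 in the WT libraries. It was weakly open in every library, with CRAMP1-KO values all below WT values and a log2 difference of -0.60 ± 0.17 (SE; adjusted p = 0.0379). The call was lost without CRAMP1-KO library 1 or 2, without WT library 2 or 3 and with fold enrichment (adjusted p up to 0.123).

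**Figure D4:**
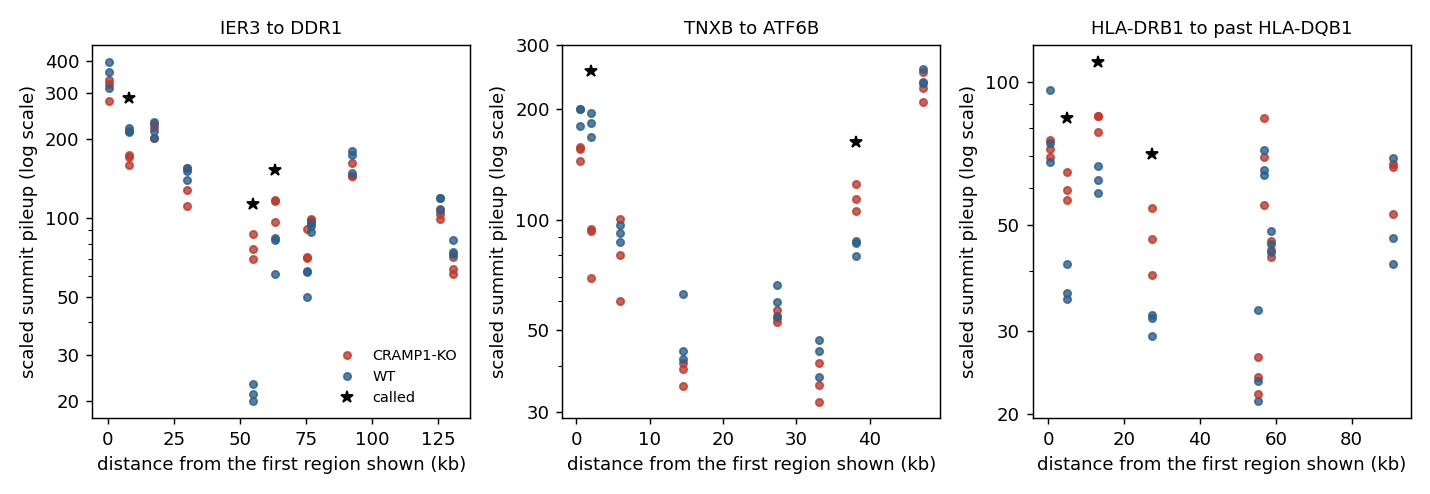
Scaled summit pileup (log scale) of the shared regions in 3 stretches, against the distance in kb from the first region shown; each point is 1 library, red for CRAMP1-KO and blue for WT, and stars mark called regions. The site between IER3 and DDR1 has 69.9 to 87.4 fragments in CRAMP1-KO libraries and 19.97 to 23.2 in WT libraries, the TNXB site has 69.6 to 94.5 in CRAMP1-KO and 168 to 196 in WT libraries, and the first called site past HLA-DRB1 has 56.4 to 64.6 in CRAMP1-KO and 34.9 to 41.4 in WT libraries.

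The class I heavy chain genes kept open starts in both genotypes. Of the 7 genes listed, 5 had a region at the start in all 6 libraries, HLA-G and MICB (which lies just inside the class III limit) had none in any library, and 0 regions were called by limma, against 16.3% of all regions (0 also at an unadjusted p under 0.05, against 32.6%). The MICB start used differed by 3.16 kb from the RefSeq spacing, so a region at that other start would not be counted. Median log2 difference over the 5 was -0.16, from -0.26 to -0.07, all below 0 here and 4 of 5 below 0 with fold enrichment. HLA-B had a much lower pileup than its neighbours, 68.6, 71.8 and 61.6 in the CRAMP1-KO libraries, against 63.0, 69.6 and 79.9 in the WT libraries, and its log2 difference was -0.07 ± 0.12 (SE; adjusted p = 0.732). HLA-C had 209.6, 218 and 222 in the CRAMP1-KO libraries, against 232, 254 and 268 in the WT libraries. Its groups did not overlap, yet the log2 difference of -0.21 ± 0.11 (SE; adjusted p = 0.192) did not pass, as with MICA, the stress-induced ligand of NKG2D, at -0.26 ± 0.12 (SE; adjusted p = 0.155). How many of all regions had no overlap was not computed. A lack of overlap at an uncalled start, here or below, is therefore not read as a difference.

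The genes that load class I molecules also had open starts. All 5 had a region in all 6 libraries, TAP1 and PSMB9 sharing 1, and 0 of the 4 regions was called by limma, against 16.3% of all regions (0 also at an unadjusted p under 0.05, against 32.6%). The median log2 difference was -0.12, from -0.19 to -0.0042. The shared start of TAP1, a subunit of the peptide transporter, and PSMB9, an immunoproteasome subunit, had 246, 269 and 247 in the CRAMP1-KO libraries, against 266, 298 and 306 in the WT libraries, with overlap and a log2 difference of -0.19 ± 0.11 (SE; adjusted p = 0.253). TAPBP, or tapasin, which bridges the transporter to class I molecules, had 83.3, 89.7 and 113 in the CRAMP1-KO libraries, against 99.4, 90.3 and 118 in the WT libraries and a log2 difference of -0.11 ± 0.15 (SE; adjusted p = 0.634).

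Class II chain genes had weaker starts, and 7 of 10 were shared by all libraries. By limma HLA-DQA1 was the 1 of the 7 called higher and none was called lower, against 9.58% and 6.77% of all regions. The median log2 difference over the 7 was 0.03. With either of the 2 scalings by background or by chromosome 6 it was -0.01, against -0.05 over all regions. HLA-DRA, the invariant partner of the DR beta chains, had a peak in CRAMP1-KO library 1 and in no other library, at a raw pileup of 20 fragments. HLA-DRB1 had peaks in 5 libraries, with raw pileups of 31 and 29 in CRAMP1-KO libraries 2 and 3, against 37, 38 and 22 in WT libraries 1, 2 and 3. HLA-DOB, which modulates peptide exchange with its partner HLA-DOA, had a peak in CRAMP1-KO library 3 alone. HLA-DMB and HLA-DMA, the chains of the peptide exchange factor HLA-DM, did not pass. Their groups did not overlap, but the share of such regions over the genome is not known. HLA-DMB had 134, 134 and 143 in the CRAMP1-KO libraries, against 115, 126 and 118 in the WT libraries and a log2 difference of 0.19 ± 0.10 (SE; adjusted p = 0.224). HLA-DMA had 55.2, 67.0 and 64.0 in the CRAMP1-KO libraries, against 46.3, 53.9 and 45.3 in the WT libraries and a log2 difference of 0.36 ± 0.12 (SE; adjusted p = 0.0735).

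Of 7 class III genes listed, HSPA1A, HSPA1B and CFB had a region at the start, and the 2 heat shock genes had it in all libraries. HSPA1B, an inducible HSP70 gene, had 384, 431 and 342 in the CRAMP1-KO libraries, against 353, 423 and 434 in the WT libraries, with overlap and a log2 difference of -0.07 ± 0.13 (SE; adjusted p = 0.758). HSPA1A, its near-identical copy, had 178, 217 and 202 in the CRAMP1-KO libraries, against 206, 254 and 228 in the WT libraries and a log2 difference of -0.21 ± 0.12 (SE; adjusted p = 0.274), and how reads were shared between the 2 coding sequences was not tested. CFB, complement factor B, had raw pileups of 18 and 26 in CRAMP1-KO libraries 1 and 3 and no peak in library 2, against 31, 38 and 17 in WT libraries.

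Other genes of the region were mostly housekeeping or chromatin genes, and 9 of 11 had a shared region at the start. By limma 0 were called, against 16.3% of all regions (2 at an unadjusted p under 0.05, against 32.6% of all regions), all 9 log2 differences were below 0 (median -0.19, from -0.36 to -0.0040), and with fold enrichment 7 of 9 were. EHMT2, the histone H3 lysine 9 methyltransferase G9a, was nearest to the threshold, with 67.4, 71.8 and 71.2 in the CRAMP1-KO libraries, against 101, 87.0 and 82.5 in the WT libraries. All its CRAMP1-KO values were lower, with a log2 difference of -0.36 ± 0.11 (SE; adjusted p = 0.0573). It was called lower when scaled on the rest of chromosome 6 (adjusted p = 0.0369) and with peaks of −log10 q of at least 5 (adjusted p = 0.0450), and the adjusted p ran up to 0.215 over the alternatives. MDC1, a mediator of the DNA damage response, had 322, 352 and 297 in the CRAMP1-KO libraries, against 343, 414 and 405 in the WT libraries and -0.26 ± 0.12 (SE; adjusted p = 0.169). NOTCH4 had a peak in WT library 2 alone, and POU5F1 had none.

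Gene starts and other regions differed in where their shifts lay. Of 113 genes placed on hg19, 96 had a region within 500 bp of the start and 86 had 1 in all libraries, which gave 76 distinct shared regions. At these, 67 of 76 log2 differences were below 0 (median -0.12), with 1 called higher and 1 lower (2.63%, against 16.3% of all regions). At the 190 shared regions away from these starts, 99 were below 0 (median -0.01), with 12 called higher and 8 lower (10.5%, also below 16.3%). Genes outside the 113 were not placed, so some of these 190 regions may lie at the start of another gene. Level differed as well, since 60 of the 76 gene starts, but 51 of the 190 other regions, lay in the highest tertile of pileup over all regions (mean of at least 112 fragments). Within that tertile, 56 of 60 MHC gene starts (93.3%) and 34 of 51 other MHC regions (66.7%) were below 0, against 64.1% of all regions of the tertile. Within the middle tertile the medians were -0.09 at 12 gene starts, 0.02 at 75 other MHC regions and 0.05 over all regions. Fewer regions were called in the highest tertile, 8.65% of all and 4.5% of the 111 MHC regions there. What part the level has in the difference between starts and other regions was not tested.

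Regions specific to 1 genotype were few and all in class I. They made up 0.467% (CRAMP1-KO-specific) and 1.87% (WT-specific) of class I regions, against 0.767% and 1.14% of all regions. A peak in 3 of 3 CRAMP1-KO libraries and 0 of 3 WT libraries was found at 1 MHC region (0.206%, against 0.767% of all regions), between HLA-G and PPP1R11 (chr6:30012318-30012752), with raw pileups of 30, 36 and 66. The reverse was found at 4 MHC regions (0.825%, against 1.14% of all regions), with raw pileups from 10 to 87 in WT libraries. The strongest, chr6:31093843-31094130, had raw pileups of 87, 75 and 44 and fold enrichments of 4.54, 3.74 and 3.59 in WT libraries. The number of CRAMP1-KO-specific regions was 4 with lists of equal length, 7 without WT library 1, 2 without WT library 3, and 5, 3 and 2 without CRAMP1-KO libraries 1, 2 and 3, where a peak in the remaining libraries was enough. That of WT-specific regions was 2 with lists of equal length, 8 without CRAMP1-KO library 3, and 9 and 15 without WT libraries 2 and 3.

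Neither the width of a region nor the peak density of larger bins was called in the MHC. In the width fit by limma, 0 of 266 regions passed, against 0.139% of all regions (0.119% wider, 0.0205% narrower in CRAMP1-KO cells). At an unadjusted p under 0.05 there were 31 (11.7%, against 12.3% of all regions), 19 of them wider in CRAMP1-KO cells. In the fit of peak shares by 1-Mb bin, 0 of the 5 bins from 29 to 34 Mb passed, while 21.6% of 2828 bins were called (18.4% higher, 3.18% lower). None of the 5 had an unadjusted p under 0.05, against 36.8% of all bins. The log2 differences of these bins were 0.01, 0.11, -0.06, 0.05 and -0.04, with SEs from 0.079 to 0.097. The bin with the largest value, from 30 to 31 Mb, had 93, 95 and 102 peaks in CRAMP1-KO libraries, against 109, 99 and 91 in WT libraries.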

How the data were processed

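Accessible chromatin of 3 CRAMP1-KO and 3 WT U2OS libraries was measured by ATAC-seq, each from 50000 cells, tagmented for 30 min and amplified over 7 PCR cycles, per the labels' protocols. The submitters' processing notes name BWA 0.7.17-r1188, MACS3, cutadapt 3.4, bcl2fastq 2.20.0 and the build hg19. MACS3 settings, duplicate handling and any transposase shift are not stated there. The authors deposited 1 peak list per library, called without pooling, in which the score of a peak is 10 times its −log10 q. The fold enrichment the authors deposited is a ratio of summit pileup to local background. The −log10 p and −log10 q they deposited rate each peak against that background. These are the authors' own values per peak.

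Pileup and background were solved from fold enrichment and −log10 p, which gave whole pileups within a relative 1e-05 for at least 99.99% of peaks in each list, and limma 3.58.1 in R 4.3.3 was fitted across all regions or 1-Mb bins (mean of at least 5 peaks, pseudocount 0.5). The steps were tested on simulated data. Local background was scaled by its own median over shared regions. Shares were compared by exact permutation. Gene positions on hg19 were written by hand for 113 genes, and for 102 the spacing of starts matched the RefSeq GRCh38.p14 gene table within 1 kb; the start used differed from that table's for MICA, MICB, DDR1, LTA and HLA-DPA1 among the genes named. The members and lists were chosen with earlier results of these data known. A class I gene is not reported here. Named were the regions at the listed gene starts, up to 3 called regions per class and direction, the genotype-specific regions and the 3 of highest fold enrichment per class. A few regions near the largest changes were also named, and the text says that they were named after their values were seen. Alternatives covered scaling, peak strength, list length, overlap, interval limits, a replicate block and leaving out each library.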

Additional observations from a re-analysis of the deposited data

How the results depend on the processing

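The MHC share of peaks (CRAMP1-KO minus WT, 0.477 per 10000) turned to -0.0249 with peaks of −log10 q of at least 5, -0.372 with at least 10 and -0.628 with lists of equal length, and ran from -0.68 to 1.33 with 1 library left out. The class I peak share (0.181) turned to -0.149, -0.382 and -0.352 under the same 3 settings and ran from -0.509 to 0.605. The covered share of the MHC (71.6 bases per 1000 kb) was -23.7 at a −log10 q of at least 10 and -24.6 with lists of equal length, and ran from -39.1 to 176. In class I (46.7) it was -3.36 at a −log10 q of at least 10 and ran from -15.4 to 105. In class III the peak share (-0.0989) ran from -0.358 to 0.11 and the covered share (-14.6) from -34.6 to 5.5 with 1 library left out. The class II peak share (0.396) ran from 0.0381, without WT library 1, to 0.626 and the class II covered share (39.4) from 10.9, without WT library 1, to 65.0. With lists of equal length they were 0.0754 and 12.7. No share can pass 0.05 with this design, since the smallest p is 0.1. The class III covered share reached that p with lists of equal length (-40.6) and without WT library 1 (-34.6), and the class II covered share reached it without WT library 3 (65.0).

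Calls of higher pileup (13) came to 7 scaled by the lowest background and 5 with fold enrichment, and to 5 to 11 with 1 library left out. Calls of lower pileup (9) came to 15 scaled on chromosome 6 outside the MHC, 1 with fold enrichment, and 2 to 8 with 1 library left out. The region at chr6:30781708-30784275 turned to -0.25 with fold enrichment. CRAMP1-KO-specific regions (1) came to 4 with lists of equal length and 1 to 7 with 1 library left out; WT-specific regions (4) came to 2 and to 5 to 15. The cause was not tested. Width and bin calls stayed at 0 in the MHC under each alternative run.

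In their departures from the mean of their genotype, same-numbered libraries correlated at 0.0556, 0.0622 and -0.0903 over 92505 shared regions. Differently numbered libraries of the 2 genotypes correlated at -0.155 to 0.0978. The same-numbered values lay within that range, which gives no sign that a shared number marks a pair. With the replicate block, 13 MHC regions were higher and 8 lower, and 13140 of 92505 regions were called in all, against 15124 without it. Read depth is not known, which limits how low-pileup regions can be judged.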
